A study of Mus musculus with 4 samples.

Results

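Hypophysiotropic hormone genes encode the peptides with which the hypothalamus governs the anterior pituitary, together with the peptides and receptors that act just upstream or downstream. The genes followed were Trh, Sst, Ghrh, Gnrh1, Kiss1, Tac2 and Trhr, chosen by symbol among the probes of the arrays that are not controls. Of these 7 genes, 6 were matched to a probe through its RefSeq accession, with 1 probe each, among 18350 symbols matched in all. Tac2, the mouse gene for neurokinin B, had no matched probe and is not analysed here. All 6 measured genes were well above background on all 4 arrays and entered the test of 21427 genes.

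Releasing hormones are made by small groups of hypothalamic neurons, carried to the median eminence and released into the portal blood of the pituitary. Thyrotropin-releasing hormone drives thyrotropin, growth hormone-releasing hormone and somatostatin drive and restrain growth hormone, and gonadotropin-releasing hormone drives the gonadotropins. Kisspeptin acts on gonadotropin-releasing hormone neurons and is a gate of puberty. Several of these peptides are also made outside the hypothalamus: somatostatin marks a large class of forebrain interneurons, and thyrotropin-releasing hormone is made in the reticular nucleus of the rodent thalamus.

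The study asked whether visual input during early postnatal life shapes expression in mouse tissue labelled thalamus and hypothalamus at postnatal day 14. The dark-reared group (2 samples) was born to dams moved into light-proof cages 1 to 4 days ahead of birth, cared for under faint red light and left there until sampling. The control group (2 samples) lived in standard cages with 12 h of light and 12 h of dark. Strain, sex and the number of animals behind a sample are not given in the labels, which call the samples biological replicates, so that p-values measure the spread between these samples. Each sample had its own single-colour Agilent array, and levels below are in log2 units above or below the 75th percentile of all signals on that array, unless called raw signals. Dark-reared 2 and control 2 lay on the same slide, and the difference between them is given as the within-slide difference.

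The samples stood apart in markers of regions and cell types, some of which followed the groups and some of which did not. Of 18 hypothalamus markers, 11 were tested, 1 had no matched probe and 6 (Sim1, Otp, Fezf1, Nr5a1, Pmch and Agrp) were not well above background on both arrays of either group. The tested markers averaged -1.80 in dark-reared 1 and 0.66 in dark-reared 2, against 1.21 in control 1 and -0.06 in control 2, as deviations from the 4-array mean. Of these 11 markers, 8 were lowest in dark-reared 1. Their ranges over the arrays ran from 0.46 to 7.52 in log2, widest for Avp (7.52) and Oxt (7.27), so the mean rests heavily on a few genes. The 11 tested thalamus markers averaged -1.04, 0.37, 1.06 and -0.39 in the same order, and 6 of them were lowest in dark-reared 1. Both list means were thus lowest in dark-reared 1 and highest in control 1. Striatum markers (10 tested) ran the other way in dark-reared 1, at 0.83, then -0.79 on dark-reared 2, against -0.66 on control 1 and 0.62 on control 2. Choroid plexus markers (8 tested) all had a higher group mean in dark-reared samples, but only 1 of them without overlap. They averaged 0.87 and 0.31 in dark-reared tissue, against 0.85 in control 1 and -2.03 in control 2. Control 2 is the array on the control side of every within-slide difference. Cortex and hippocampus markers (14 tested, 10 higher, 4 of them without overlap) averaged 0.19 and 0.22 in dark-reared tissue, against 0.00 and -0.41 in control tissue. Xist, the RNA of the inactive X chromosome, was at 3.42 in dark-reared 1 and -5.81 in dark-reared 2, against 3.79 in control 1 and -6.48 in control 2. Ddx3y, a Y-linked gene, was at -0.32, 1.07, -6.54 and 1.18 in that order, so the samples of a group differed in sex-linked transcripts too.

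The upstream sequences of the peptide genes with the widest and the narrowest spread over the 4 arrays, Trh and Sst, are shown because these genes mark the extremes of the values described below. They are the 250 bases before the RefSeq start site on mouse assembly GRCm38.p6, 5′ to 3′ in the direction of the gene, and the arrays themselves were annotated on another assembly. Capitals mark the cAMP response element TGACGTCA, its relative TGACCTCA, known as site 4 of the Trh promoter, and the TATA core TATAA, each searched on both strands.
Trh (chr6:92244651-92244900, minus strand): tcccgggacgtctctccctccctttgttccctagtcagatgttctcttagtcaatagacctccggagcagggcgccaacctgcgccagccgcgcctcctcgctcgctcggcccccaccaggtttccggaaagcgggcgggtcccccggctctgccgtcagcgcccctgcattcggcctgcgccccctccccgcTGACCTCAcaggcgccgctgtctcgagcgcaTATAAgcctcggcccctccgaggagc
Sst (chr16:23890845-23891094, minus strand): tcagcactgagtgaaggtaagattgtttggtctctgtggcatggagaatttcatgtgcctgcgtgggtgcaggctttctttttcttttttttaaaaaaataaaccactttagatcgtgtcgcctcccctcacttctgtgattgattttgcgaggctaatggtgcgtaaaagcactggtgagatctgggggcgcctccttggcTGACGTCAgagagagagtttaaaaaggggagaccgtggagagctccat

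The Sst window held the cAMP response element 48 to 41 bases before the start, the element through which cAMP is known to act on this gene. The Trh window held TGACCTCA 57 to 50 bases before the start and a TATA core 26 to 22 bases before it. Among all 32851 windows of this length, 1.55% held TGACGTCA, 1.94% held TGACCTCA and 22.8% held TATAA on either strand. Of the 7 genes, 5 had a window in the table, with 2 windows for Ghrh. Both Ghrh windows held a TATA core, and the windows of Kiss1 and Tac2 held none of the 3 motifs.

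Trh, which encodes the precursor of thyrotropin-releasing hormone, varied most. Its log2 signal was -3.78 in dark-reared 1 and -1.33 in dark-reared 2, against 0.32 in control 1 and -1.98 in control 2. The raw signals behind these values were 57.9 and 309 in dark-reared tissue, against 973 and 193 in control tissue. Dark-reared 1 was the low array and control 1 the high one, while dark-reared 2 lay above control 2, so the groups overlapped. The lowest and highest arrays were 17.1-fold apart, a range wider than that of 99.8% of tested genes, whose median range was 0.42 in log2. The mean was -2.55 ± 1.73 in the dark-reared and -0.83 ± 1.62 in the control group (SD, n = 2 each), which differed by -1.72 (limma standard error 1.20, adjusted p = 1.00). The gap between the samples of a group, 2.45 among dark-reared and 2.30 among controls, was larger than the difference between groups. The within-slide difference was 0.66, the opposite sign, and without dark-reared 1 or without control 1 the group difference was -0.49 or -0.57. The means of the hypothalamus and thalamus lists were lowest in dark-reared 1 and highest in control 1, as Trh was. Markers of the reticular nucleus and zona incerta (7 tested) averaged -0.24 and -0.21 in dark-reared tissue, against 0.35 and 0.11 in control tissue, as deviations. The part of these lists in the Trh values was not tested, and in tissue RNA fewer cells of a type and less RNA per cell cannot be told apart.

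Trhr encodes the receptor for thyrotropin-releasing hormone, found on pituitary thyrotrophs and on many brain neurons. Its log2 signal was -4.43 in dark-reared 1 and -1.50 in dark-reared 2, against -2.55 in control 1 and -2.64 in control 2. The dark-reared samples thus lay on either side of the controls, which were 0.09 apart. The means were -2.96 ± 2.07 in the dark-reared and -2.60 ± 0.06 in the control group (SD, n = 2 each), which differed by -0.36 (limma standard error 1.05, adjusted p = 1.00). The within-slide difference was 1.15, and the difference was 1.10 without dark-reared 1 and -1.83 without dark-reared 2. Ligand and receptor therefore shared their low array but not their high one. In dark-reared 1 the Trhr signal was only 0.73 in log2 above the detection floor, meaning the lowest signal flagged well above background there.

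Gnrh1, which encodes the precursor of gonadotropin-releasing hormone, had the same order of arrays as Trhr at its ends. Its log2 signal was -4.19 in dark-reared 1 and -1.03 in dark-reared 2, against -2.61 in control 1 and -2.74 in control 2. The dark-reared samples were 8.95-fold apart and enclosed both controls, which differed by 0.13 in log2. In dark-reared 1 the Gnrh1 signal was only 0.96 in log2 above the detection floor. The group means were almost equal, -2.61 ± 2.24 in the dark-reared and -2.67 ± 0.10 in the control group (SD, n = 2 each), and the difference of 0.06 (standard error 1.13, limma adjusted p = 1.00) took either sign when an array was left out, from -1.52 without dark-reared 2 to 1.64 without dark-reared 1. The within-slide difference was 1.71. The 95% interval of the group difference ran from -3.10 to 3.23, so neither a several-fold rise nor a several-fold fall lies outside it.

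Ghrh encodes growth hormone-releasing hormone, a product of the arcuate nucleus. Its log2 signal was -2.05 in dark-reared 1 and -1.42 in dark-reared 2, against -0.47 in control 1 and -1.65 in control 2. As with Trh, dark-reared 1 was lowest, control 1 highest and the groups overlapped, over a range of 2.98-fold. The means were -1.73 ± 0.45 in the dark-reared and -1.06 ± 0.83 in the control group (SD, n = 2 each), which differed by -0.67 (limma standard error 0.50, adjusted p = 1.00). Within the slide the difference was 0.23, and without control 1 it was -0.08.

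Sst encodes the precursor of somatostatin, which restrains growth hormone, and was the steady member of the set. Its log2 signal was 4.41 in dark-reared 1 and 4.28 in dark-reared 2, against 4.39 in control 1 and 4.75 in control 2. The 4 arrays spanned 1.39-fold, control 2 was highest, and the groups overlapped by a small margin. Its probe was printed 10 times on each array, and the SD over the spots kept was 0.07 and 0.06 in dark-reared tissue, against 0.04 and 0.05 in control tissue, in log2. The means were 4.34 ± 0.09 in the dark-reared and 4.57 ± 0.26 in the control group (SD, n = 2 each), which differed by -0.23 (limma standard error 0.19, adjusted p = 1.00), whose 95% interval ran from -0.77 to 0.31. The within-slide difference was -0.47. Markers of forebrain interneurons (11 tested) had mean deviations of -0.03 on dark-reared 1 and 0.11 on dark-reared 2, against -0.16 on control 1 and 0.09 on control 2, but single markers moved in opposite directions, with ranges over the arrays of 0.19 for Maf to 1.68 for Lhx6 and 1.90 for Vip. Cortistatin (Cort), a somatostatin relative of cortical interneurons, was at -0.77 and -1.16 in dark-reared tissue, against -1.61 and -1.32 in control tissue, without overlap.

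Kiss1, which encodes the kisspeptin precursor, was the only one of the 6 genes whose groups did not overlap. Its log2 signal was -3.81 in dark-reared 1 and -4.44 in dark-reared 2, against -2.85 in control 1 and -3.73 in control 2. Dark-reared 1 and control 2 were almost level, with raw signals of 56.6 and 57.7. The means were -4.12 ± 0.45 in the dark-reared and -3.29 ± 0.62 in the control group (SD, n = 2 each), which differed by -0.83 (limma standard error 0.41, unadjusted p = 0.111, adjusted p = 1.00). The difference kept its sign within the slide (-0.71) and with any array left out, which the lack of overlap alone fixes, and was -0.40 without control 1. With normexp background correction it was -0.46. Kiss1 was dim on every array, at 1.34 and 0.61 in log2 above the detection floor in dark-reared tissue, against 2.35 and 0.72 in control tissue. A lack of overlap was found for 19.1% of all genes in the test, and for 9.58% with the dark-reared samples lower, so 1 of 6 is near the background.

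**Figure D1:**
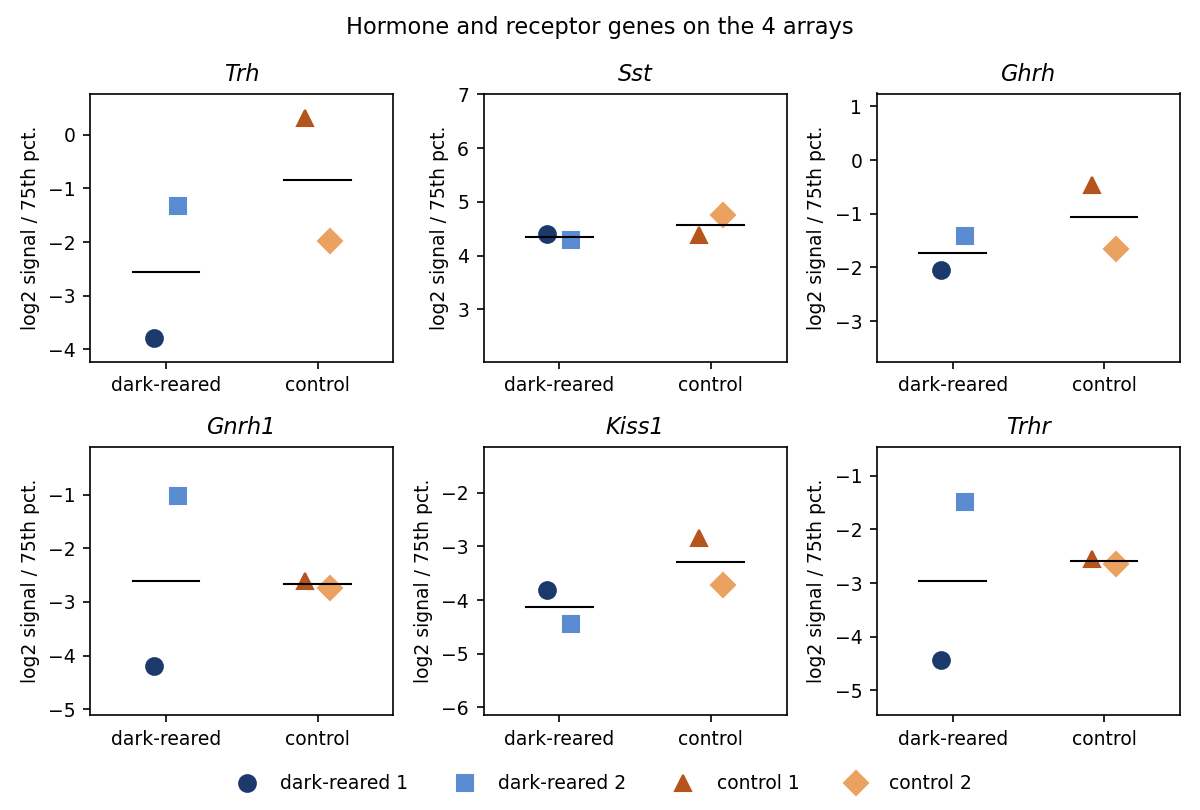
Log2 signal relative to the 75th percentile of the array (y axes, each spanning the same number of log2 units) for 6 genes in dark-reared and control samples (x axes); each symbol is 1 array and each bar a group mean. The dark-reared samples enclose the controls for Gnrh1 and Trhr, the 4 arrays lie close together for Sst (4.28 to 4.75), and only Kiss1 shows no overlap.

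None of the 6 genes passed the test. Of 21427 genes tested with limma, 0 (0%) had an adjusted p under 0.05 and 267 had an unadjusted p under 0.05; none of the 6 genes was among those 267. The mean was lower in dark-reared samples for 5 of the 6 genes (all but Gnrh1), against 51.9% of all tested genes, and the median difference of the 6 was -0.52 against -0.01 for all. That count was 4 when dark-reared 1 was left out, 6 for dark-reared 2, 5 for control 1 and 6 for control 2. Within the slide, 4 genes (Trh, Ghrh, Gnrh1 and Trhr) were higher in dark-reared 2 than in control 2, and 2 (Sst and Kiss1) were lower.

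**Figure D2:**
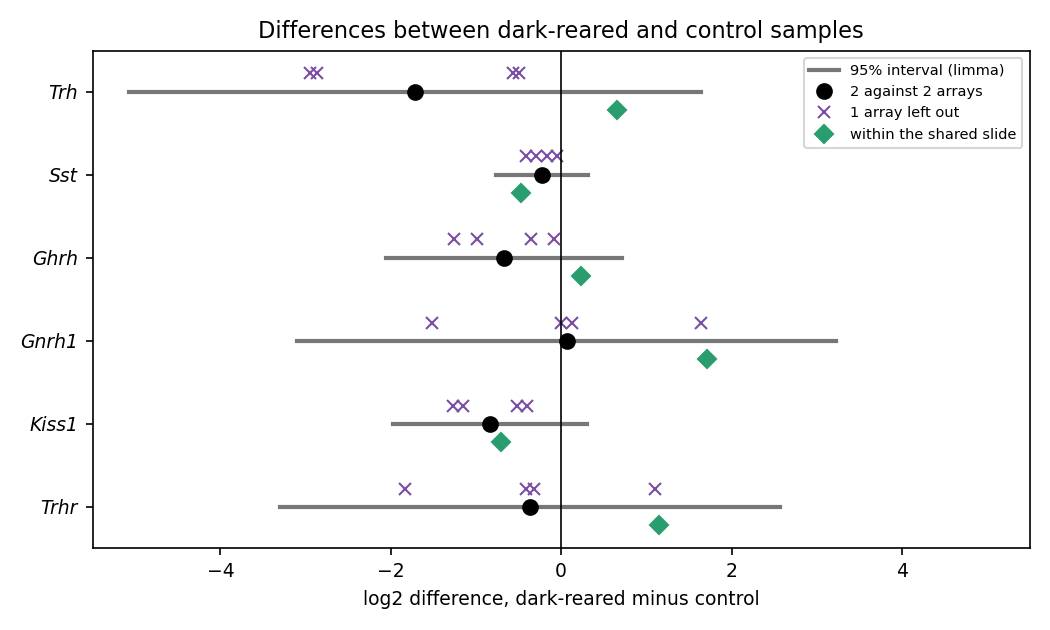
Log2 difference, dark-reared minus control (x axis), for each gene (y axis): points are the comparison of 2 with 2 arrays, bars its 95% interval from limma, crosses the fits with 1 array left out and diamonds the within-slide difference. All 6 intervals include 0, and the diamonds of Trh, Ghrh and Trhr lie on the other side of 0 from their points.

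The genes differed in how far they varied over the arrays. A range of at least 2 in log2 over the 4 arrays was found for 3 of the 6 genes (Trh, Gnrh1 and Trhr), against 3.61% of all tested genes. The lowest value lay in dark-reared 1 for 4 genes (Trh, Ghrh, Gnrh1 and Trhr) and in dark-reared 2 for Sst and Kiss1, where each of these arrays held the lowest value of 28.4% of all tested genes. The highest value lay in control 1 for Trh, Ghrh and Kiss1, where 23.8% of all tested genes had theirs. Among the 15 pairs, Gnrh1 and Trhr were the most alike, with centred values 0.23 apart (root mean square, log2, over 4 arrays). Ghrh and Kiss1 followed at 0.47, and Trh and Sst were farthest apart at 1.51. The likeness is a description of 4 samples, and it depends on how far each gene varied.

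**Figure D3:**
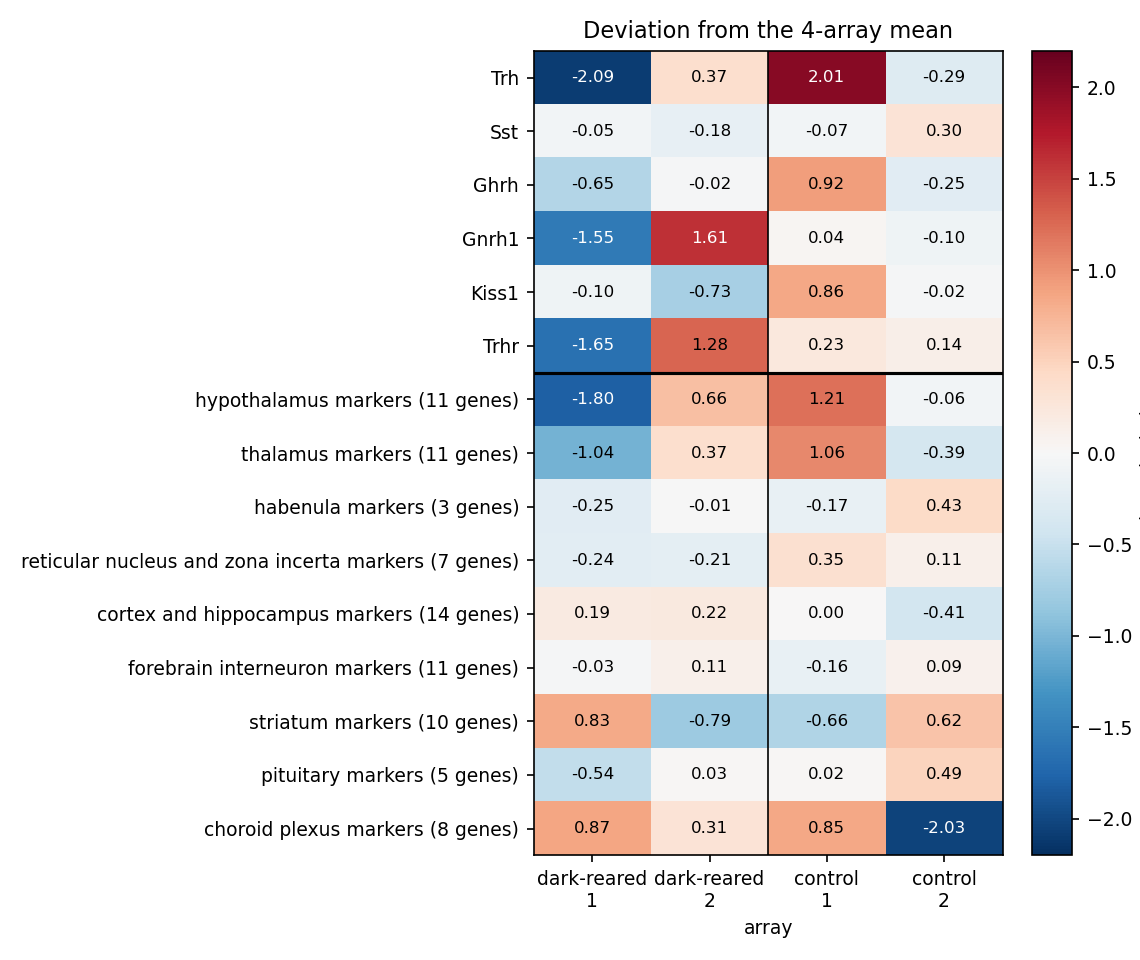
Deviation of each gene (upper 6 rows) and of the mean of each marker list (lower rows) from its own 4-array mean, in log2 (colour and printed value), for each array (x axis). Trh and the mean of the hypothalamus markers are lowest in dark-reared 1 (-2.09 and -1.80) and highest in control 1 (2.01 and 1.21), while Sst stays within 0.30 of its mean.

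Genes with the most similar pattern were looked for among 13528 other named genes well above background on all arrays, by the root mean square distance of centred log2 values over the 4 arrays. This distance depends on the size of the deviations as well as on their shape. Nearest to Trh were Ntng1 (0.41), Dlk1 (0.46) and Lhx1 (0.48). Ntng1 is one of the thalamus markers, Dlk1 one of the hormone feedback genes and Lhx1 one of the hypothalamus markers listed here. These lists were chosen with earlier results of these data known. Nearest to Gnrh1 were Nrp2 (0.12), Rhox5 (0.22) and Trhr (0.23), and nearest to Trhr were Nrp2 (0.12), Dgkk (0.13) and Ngfr (0.15). Nrp2, a neuropilin, was at 0.42 and 3.53 in dark-reared tissue, against 2.14 and 2.11 in control tissue. Nearest to Ghrh were Adarb1, Npsr1 and Pakap, and nearest to Kiss1 were Mcc, Myl2 and Plxdc1. Within 0.5 lay 2320 genes for Ghrh and 2358 for Kiss1, against 5 for Trh, 49 for Gnrh1 and 105 for Trhr. The neighbours of Ghrh and Kiss1 are therefore a few of very many. Sst deviated too little for its neighbours to mark a pattern.

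Receptors of the same axes were measured for 9 of 13 listed genes, 4 lower and 5 higher in dark-reared samples, with a median of 0.15 that turned to -0.24 without the filter on dim probes, -0.029 with the mean of a gene's kept probes and -0.16 within the slide. None passed the adjusted threshold. Ghsr, the ghrelin receptor and an input to growth hormone release, was at -3.68 and -3.95 in dark-reared tissue, against -2.46 and -2.18 in control tissue, a difference of -1.49 (limma standard error 0.19, unadjusted p = 0.00159, adjusted p = 1.00) that was -1.76 within the slide. The samples of each group lay within 0.27 of each other for Ghsr and the groups did not overlap, which on this list was also so for Sstr3. Ghrhr, the pituitary receptor for growth hormone-releasing hormone, was at -6.98 in dark-reared 1, where it was not well above background, and at -3.73 in dark-reared 2, against -3.85 in control 1 and -3.57 in control 2. The somatostatin receptor Sstr4 was at -2.59 and -1.01 in dark-reared tissue, against -1.28 and -0.46 in control tissue, and Crhr2, a corticotropin-releasing factor receptor, differed by 0.33 with overlap. Of the 10 pituitary markers 5 were tested and all 5 were lower, with a median of -0.35. The count was 4 of 5 with median or quantile scaling or the deposited values, where Cga was higher. Prl, Tshb, Pitx1 and Tbx19 were not well above background on both arrays of either group. Gh was well above background only in controls, at just 0.21 and 0.13 in log2 above the detection floor. It entered the test through the controls alone, so its lower value in dark-reared samples adds no support to the count (limma adjusted p = 1.00).

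Other signals of these axes were tested for 5 of 11 listed genes, of which 4 were lower (3 with normexp, where Crhbp was higher), none past the adjusted threshold. Th, the rate-limiting enzyme of the synthesis of dopamine, the hypothalamic brake on prolactin, was at -1.71 and -2.42 in dark-reared tissue, against -1.42 and -1.36 in control tissue, without overlap (difference -0.67, standard error 0.29, limma adjusted p = 1.00). The dopamine transporter gene Slc6a3 differed by -0.40 with overlap, and Ghrl, the ghrelin precursor, was at -5.02 (not well above background) and -3.61 in dark-reared tissue, against -3.47 and -3.67 in control tissue. Only Cort was higher, by 0.50 and without overlap.

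Genes that make and break peptides were all measured, 9 of 12 lower, none past the adjusted threshold and with a median of -0.05. The count was 8 with median scaling, where Trhde was higher, and with normexp, where Mme was. Pcsk1, a convertase that cuts prohormones, was at -2.24 and -1.20 in dark-reared tissue, against -0.99 and -1.62 in control tissue, again lowest in dark-reared 1. Qpct, which closes the pyroglutamate ring at the start of thyrotropin- and gonadotropin-releasing hormone, was at 0.41 and 1.12 in dark-reared tissue, against 0.63 and 0.62 in control tissue. Pgpep1, a peptidase that removes that ring, differed by -0.29 without overlap, and Pcsk1n, a convertase inhibitor, by -0.12.

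Transcription factors of neuroendocrine lineages and genes of hormone feedback had list medians close to the -0.01 of all genes, and none of them passed the adjusted threshold. Of 8 tested lineage factors (14 listed) 6 were higher, with a median of 0.07; Dlx1 differed by 0.44 and Arnt2 by 0.20, both without overlap, and Gsx1, a regulator of growth hormone-releasing hormone neurons in mice, by 0.22 and Tbx3 by -0.14, both with overlap. Of 17 tested feedback genes (18 listed) 11 were higher, with a median of 0.04. Esr1, the oestrogen receptor, was at -5.91 (not well above background) and -3.24 in dark-reared tissue, against -2.28 and -4.09 in control tissue. Dlk1, an imprinted gene linked to pubertal timing, was at -3.32 and -1.02 in dark-reared tissue, against -0.41 and -1.76 in control tissue. Hr, a thyroid hormone target, differed by -0.68, and Dio2, the deiodinase that activates thyroid hormone, by 0.42, both with overlap.

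**Figure D4:**
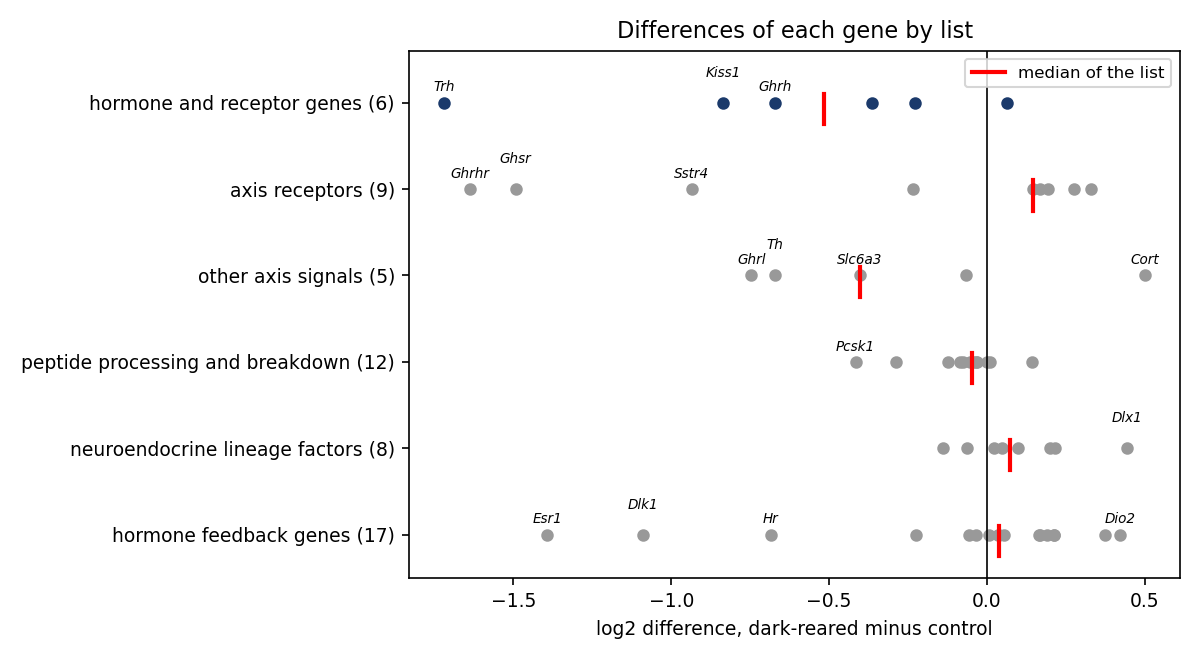
Log2 difference, dark-reared minus control (x axis), of each tested gene in the set of 6 and in 5 lists of related genes (y axis, with the number tested); red marks are list medians and genes beyond 0.4 are named. The 6 hormone and receptor genes have a median of -0.52, and the list medians run from -0.40 to 0.15.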

How the data were processed

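Raw intensity values of 4 arrays, 1 per sample, were deposited as Agilent Feature Extraction 10.7.3.1 output, per the file headers; background had been subtracted and spatial trends removed within each array. The authors also deposited log2 values with medians of 6.84 on every array, by a normalization not given in the sources used here; their correlation with log2 of the processed signals of the same array was 0.999 to 1.00.

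From the 43379 spots that are not controls, outlier spots (79 to 103 an array) were left out, the spots of each of 41174 probes averaged and log2 signals set relative to the 75th percentile of the array (raw 764 to 794). The number of arrays and the signal over background limit the precision: 65.9% to 73.3% of probes were well above background, and no spot was saturated. Symbols came from RefSeq accessions through a table of GRCm38.p6, which matched 26918 probes. A probe was kept if both arrays of a group flagged it well above background (28444), and the brightest stood for a gene, giving 21427 genes, 14329 with a symbol.

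The test of dark-reared against control samples was the two-sided moderated one of limma 3.58.1 (R 4.3.3), with p-values adjusted by Benjamini and Hochberg over all genes and a threshold of 0.05; the fit was tested on simulated data. A gene flagged on both arrays of only 1 group, such as Gh, Ghrhr, Ghrl or Esr1, entered through that group. The filter thus favoured a higher value there. The genes, lists and settings were chosen with earlier results of these data known. Of each list, the 4 genes with the largest absolute difference are named; Sstr3 and genes that only complete a count were named after their values were seen.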

Additional observations from a re-analysis of the deposited data

How the results depend on the processing

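No gene passed the adjusted threshold under any of the 16 alternative fits. Dark-reared and control samples share replicate numbers, but the labels name no litter, batch or day behind a number and the deviations of same-numbered samples were weakly opposed (correlation -0.16 across genes), so the numbers were not used as pairs; Xist and, for replicates 2, the slide did go with the number. With the replicate number as a block, or with crossed numbers (chosen after seeing the data), 0 genes passed again and the differences of the 6 genes were the same by construction, Trh at -1.72. Slide as a random block could not be estimated. Scaling and background settings kept the sign of all 6 genes. The filter on dim probes, the choice of probes and the moderation could not change these differences. Each of the 6 genes had a lone probe, well above background on all arrays, and moderation leaves differences as they are. Those settings are therefore no check on the signs. With normexp, after the median background of the array had taken the place of outlying local ones, Trh was at -1.19, Gnrh1 at 0.23 and Trhr at -0.09. Within the slide Trh (0.66), Ghrh (0.23) and Trhr (1.15) reversed, Sst was at -0.47 and Gnrh1 at 1.71, and 2 of 6 genes were lower. With each array left out, Trh ran from -2.94 to -0.49, Sst from -0.41 to -0.05, Ghrh from -1.26 to -0.08, Gnrh1 from -1.52 to 1.64 (it was -0.0033 without control 2), Kiss1 from -1.27 to -0.40 and Trhr from -1.83 to 1.10. Those fits assume that a lone sample varies like the other group.

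At least 2-fold apart without overlap were 258 genes, 23 with normexp, 810 without the filter on dim probes, 79 with the filter on all arrays, 898 to 1212 with an array left out and 1366 within the slide. With 1 array left out, the filter asked only for the remaining array of that group, so that dim genes could enter. The counts and list medians of these fits therefore mix the loss of an array with a looser filter. Receptors then ran from -0.23 to 0.13, other signals from -0.55 to -0.040 and peptide processing from -0.14 to -0.043. Lineage factors ran from -0.12 to 0.35 and feedback genes from -0.045 to 0.072. Other signals were at -0.21 with normexp, -0.23 without the filter or with it on all arrays, and 0.058 within the slide. Lineage factors were at 0.23 within the slide and -0.064 without the filter, where receptors were at -0.24; receptors were at -0.16 within the slide.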
